A study of Mus musculus with 9 samples.

Results

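The LRCH genes encode proteins with leucine-rich repeats and a calponin homology domain, and mice carry 4 of them, Lrch1, Lrch2, Lrch3 and Lrch4. All 4 symbols were found among the 22972 gene names of the deposited tables. The family was chosen by the values of Lrch4 in these libraries, which were low after cyclic straining, so that its differences between the groups are given as a description and without a test. RNA sequencing had been performed on B16 cells, a mouse melanoma line labelled wild type and grown on flexible PDMS film, in 9 libraries of 3 groups collected on day 3. The 3 CTL libraries came from cells without straining. The 3 MS libraries came from cells strained cyclically for 72 h. The last 3 came from cells given blebbistatin, an inhibitor of myosin II, at 100 ng/mL for 72 h. The study's name for these, MS + Blebb., includes straining, which their labels leave out, and that name is used here. The libraries of a group are labelled as parallel experiments, for which the study built a panel of several culture units. Whether each library came from a unit of its own is not given in the sources used here, so p-values measure the spread between these libraries, which may be technical.

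LRCH proteins act at the cell cortex, where they meet regulators of small GTPases. LRCH1 restrains the activity of Cdc42 in migrating leukocytes. LRCH3 is found in a complex with the motor myosin VI and with septins, the filament-forming GTPases. LRCH4 is a membrane protein reported to take part in the response of macrophages to lipopolysaccharide through Toll-like receptor 4. The comparison of CTL with MS asks which genes differ after straining of melanoma cells. That of MS with MS + Blebb. asks what differs when myosin is inhibited, provided that the latter cells were strained as the study's name says.

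The values are FPKM, which divide the fragments of a gene by transcript length and library size, so that levels of different genes can be set side by side per length. The number of reads behind each value is unknown. The libraries reached between 9529 and 10388 genes at 1 FPKM or more. CTL replicate 1 and MS + Blebb. replicate 2 stood apart from the others on the first principal component, which held 70.4% of the variance, with scores of -42.1 and -43.9 against -10.0 to 35.8 for the other 7. The cells matched their label, with 7 of 7 melanocyte markers reaching 1 FPKM and a summed level of 7444 to 12930 FPKM over the 9 libraries. Of the markers of other cell types, 2 of 6 for macrophages reached 1 FPKM in any library (sum 2.13 to 3.19 FPKM in CTL, 2.28 to 4.32 in MS and 2.74 to 3.47 in MS + Blebb.), with Ptprc, which encodes CD45, at 0 in all of them. None of 7 for fibroblasts (highest sum 1.23 FPKM) and none of 6 for keratinocytes (highest sum 0.0314 FPKM) did.

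Lrch4 had the highest level of the family in B16 cells. Its level was 27.2, 20.4 and 27.3 FPKM in CTL replicates 1, 2 and 3. In MS it was 8.68, 8.02 and 9.66 FPKM, and in MS + Blebb. it was 26.5, 11.4 and 16.7 FPKM. All 3 MS libraries lay below all 6 others, and the MS + Blebb. libraries spread from within the CTL range to near the MS range. The group means were 25.0 ± 3.95 FPKM in CTL, 8.78 ± 0.826 in MS and 18.2 ± 7.68 in MS + Blebb. (SD, n = 3 each), so that the mean of CTL was 2.84 times that of MS. RNA of a whole culture cannot tell fewer cells with a transcript from less of it per cell.

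Lrch3, whose protein meets myosin VI and septins, came next in level. It was listed at 6.80, 9.0 and 10.3 FPKM in CTL, at 9.51, 6.81 and 9.26 FPKM in MS and at 7.12, 6.02 and 9.22 FPKM in MS + Blebb. The 3 groups overlapped. Its means were 8.70 ± 1.77, 8.53 ± 1.49 and 7.46 ± 1.63 FPKM in the same order (SD, n = 3 each). The strand setting of the counting is not given in the sources used here, so that reads of Lrch3 and of Iqcg, an overlapping gene on the other strand at 0.551 to 1.79 FPKM, may not have been told apart.

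Lrch1, whose protein restrains Cdc42, was lower still. It was listed at 2.33, 3.58 and 3.81 FPKM in CTL, at 3.66, 2.54 and 2.92 FPKM in MS and at 2.85, 2.57 and 3.18 FPKM in MS + Blebb., again with overlap of all groups. Its means were 3.24 ± 0.801, 3.04 ± 0.571 and 2.87 ± 0.308 FPKM (SD, n = 3 each). Lrch2 was listed at 0 in all 9 libraries, and no fold or test was computed for it.

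The order of the members held in nearly every library. Lrch3 was above Lrch1 in 9 of 9 libraries and Lrch4 was above Lrch3 in 8 of 9, the exception being MS replicate 1. The ratio of Lrch4 to Lrch3 was 2.27 to 4.0 in CTL, 0.913 to 1.18 in MS and 1.81 to 3.72 in MS + Blebb. By the FPKM listed under their names, these neighbours in the order did not differ beyond their spread in MS. Lrch4 made up 67.6% ± 6.66 of the summed FPKM of the family in CTL, 43.4% ± 3.31 in MS and 62.4% ± 8.93 in MS + Blebb. (SD, n = 3 each). The order, the ratio and this share use only the FPKM listed under Lrch4. They leave out Gm20605, an overlapping gene with the same coding sequence that is described below. With Gm20605 added, Lrch4 was at 22.1, 24.9 and 29.3 FPKM in MS replicates 1, 2 and 3, above Lrch3 in each. No family share with Gm20605 was computed.

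Lrch1 and Lrch3 moved together over the 9 libraries and apart from Lrch4. On the log2(FPKM + 1) scale Pearson's r was 0.87 between Lrch1 and Lrch3, 0.10 between Lrch1 and Lrch4 and 0.07 between Lrch3 and Lrch4, where the points share the libraries and their groups. Lrch1 and Lrch3 followed the differences between libraries, with r of 0.83 and 0.80 with the first principal component and of -0.80 and -0.89 with the GC trend of the library, which is the correlation over genes of a library's deviation from the mean with GC content. The same values for Lrch4 were -0.13 and 0.24. The part of these library differences in the levels of Lrch1 and Lrch3 was not tested.

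Genes averaging 1 FPKM or more over all libraries, 10109 in number and with 3 of the 4 members among them, were compared in 1 limma fit on log2(FPKM + 1) with Benjamini-Hochberg adjustment over all genes. On this scale the difference of Lrch4 between MS and CTL was -1.40, rank 3 from the lowest of the 10109 genes, whose 1st and 99th percentiles were -0.28 and 0.48. Lrch4 was also not overlapping between MS and CTL, as were 267 genes that were lower in MS (2.64%) and 53 that were higher (0.524%). Nothing is read from this for Lrch4, since its values in all groups were part of its choice. For the genes as a whole the limma fit gave 0 with an adjusted p under 0.05 (0%) and 16 with an unadjusted p under 0.05 (0.158%), the smallest adjusted p being 1.

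Neither Lrch3 nor Lrch1 passed the test between MS and CTL. The log2 difference was -0.022 ± 0.207 for Lrch3 (SE, 95% interval -0.49 to 0.45) and -0.06 ± 0.19 for Lrch1 (interval -0.49 to 0.37), each with an adjusted p of 1 in limma. The sign of both turned when CTL replicate 2, CTL replicate 3 or MS replicate 2 was left out, to between 0.005 and 0.12. Differences within these intervals could not be told from none with 3 libraries in a group.

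In MS + Blebb. the level of Lrch4 was above that of MS in 3 of 3 libraries, with a log2 difference of 0.90, rank 5 from the highest. It was 0.60 when MS + Blebb. replicate 1 was left out and 1.18 when replicate 2 was. The MS libraries are shared with the comparison before, so that the differences are not independent. Groups did not overlap for 308 genes higher in MS + Blebb. than in MS (3.05%) and for 69 lower (0.683%). The limma fit gave 0 genes with an adjusted p under 0.05 (0%) and 126 with an unadjusted p under 0.05 (1.25%). The log2 difference was -0.18 ± 0.207 for Lrch3 (interval -0.65 to 0.29, adjusted p = 0.897) and -0.057 ± 0.19 for Lrch1 (interval -0.49 to 0.37, adjusted p = 0.96) in limma.

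Between MS + Blebb. and CTL the log2 difference of Lrch4 was -0.50, and the groups overlapped. Single libraries decided its size, which was -0.80 when MS + Blebb. replicate 1 was left out and -0.22 when replicate 2 was. For Lrch3 the difference was -0.20 ± 0.207 (SE, 95% interval -0.67 to 0.27) and for Lrch1 -0.12 ± 0.19 (interval -0.55 to 0.31), both with an adjusted p of 1 in limma. Over all genes the limma fit gave 0 with an adjusted p under 0.05 (0%) and 9 with an unadjusted p under 0.05 (0.089%), while groups did not overlap for 94 genes higher in MS + Blebb. (0.93%) and 116 lower (1.15%).

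**Figure D1:**
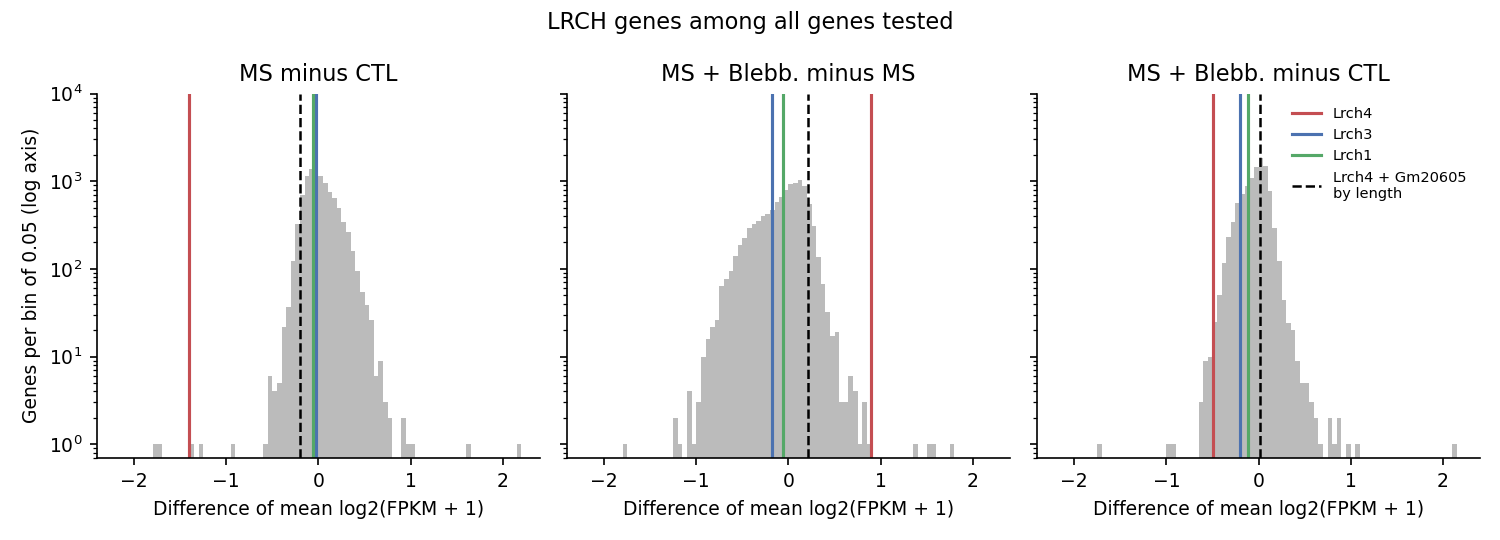
Number of genes (vertical axis, log scale) by difference of mean log2(FPKM + 1) (horizontal axis, bins of 0.05) for the 3 comparisons over 10109 genes, with lines at Lrch4, Lrch3 and Lrch1 and a dashed line at the length-weighted sum of Lrch4 and Gm20605. Lrch4 lies at -1.40 in MS minus CTL and at 0.90 in MS + Blebb. minus MS, at the edges of all genes, while Lrch1, Lrch3 and the dashed line (-0.20 and 0.21) lie within the bulk.

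The level of Lrch4 cannot be read without that of a gene that overlaps it. In GENCODE M21 on GRCm38, the build the submitters name, Lrch4 (ENSMUSG00000093445.7) lies at chr5:137629121-137641099 on the plus strand. Gm20605 (ENSMUSG00000029720.9), a protein-coding gene at chr5:137629175-137642899 on the same strand, runs through Lrch4 and the next gene, Sap25, which encodes a subunit of a histone deacetylase complex. The transcript Gm20605-201 has 22 exons and 4464 bases and holds 98.2% of the 3078 bases and 18 exons of Lrch4-201. It starts 54 bases downstream, ends 1805 bases downstream and has the same coding sequence of 680 codons. Of Lrch4-201, 54 bases at the start lie outside Gm20605-201, and of Gm20605-201, 1440 bases lie outside Lrch4-201. A read from any of the 3024 shared bases matches both names, and how the counting divided them is not given in the sources used here.

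**Figure D2:**
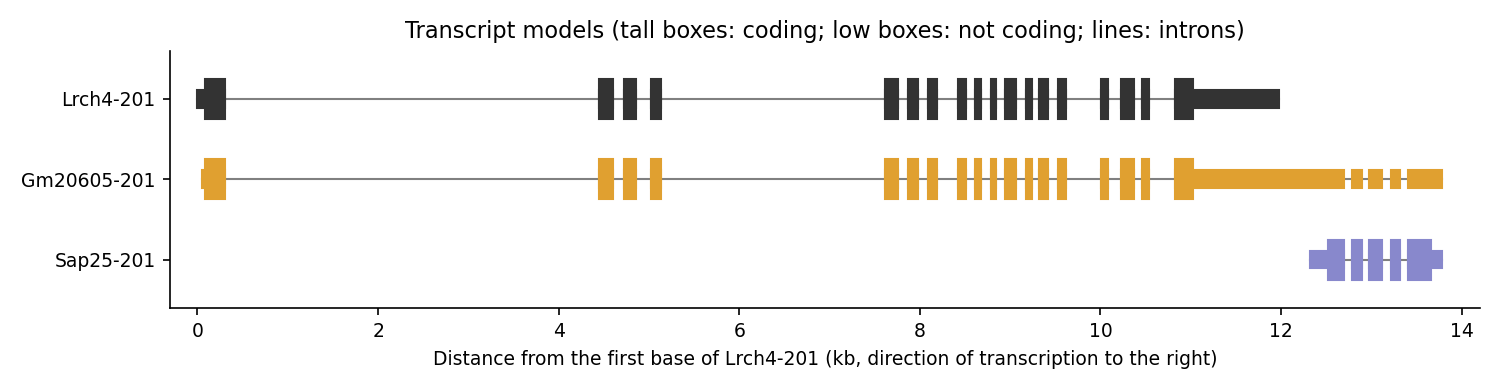
Exons of Lrch4-201, Gm20605-201 and Sap25-201 by distance in kb from the first base of Lrch4-201 (horizontal axis), where tall boxes are coding, low boxes are not coding and lines are introns. Both upper transcripts show the same coding boxes, and Gm20605-201 continues past the end of Lrch4-201 through the exons of Sap25-201.

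The joint of exons 17 and 18 shows this at the level of bases. It is the last coding junction of both transcripts, at chr5:137639636-137639967, read here from the GENCODE M21 transcripts with 20 bases of exon 17 in lower case and 20 bases of exon 18 in capitals. A read across it belongs equally to both names.
Lrch4-201 and Gm20605-201, exon 17 to 18: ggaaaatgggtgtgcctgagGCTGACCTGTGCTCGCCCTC

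Both transcripts also start behind the same upstream stretch, since their starts are 54 bases apart. The bases before the start of Lrch4-201, from the RefSeq promoter table (GRCm38.p6, chr5:137628873-137629120, plus strand), hold 4 CCAAT boxes, all on the minus strand, which read as ATTGG on the plus strand and are in capitals.
Lrch4 upstream, 248 bases: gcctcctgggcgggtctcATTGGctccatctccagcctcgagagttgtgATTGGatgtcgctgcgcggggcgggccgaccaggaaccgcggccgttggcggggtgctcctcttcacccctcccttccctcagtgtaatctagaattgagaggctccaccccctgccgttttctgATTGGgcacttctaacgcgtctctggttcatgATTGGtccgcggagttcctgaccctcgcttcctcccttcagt
Of 32851 windows of 300 bases in that table, 37.4% held CCAAT on either strand at least once and 349 (1.06%) held it at least 4 times. The windows of Lrch1 and Lrch3 held 0 and those of Lrch2 at most 1. These are matches of letters and say nothing of which factor binds.

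Gm20605 moved against Lrch4. Its level was 10.8, 11.8 and 4.0 FPKM in CTL, 13.4, 16.9 and 19.6 FPKM in MS and 7.87, 24.5 and 9.80 FPKM in MS + Blebb. All 3 MS libraries lay above all 3 CTL libraries, and the MS + Blebb. libraries overlapped both. Gm20605 was above Lrch4 in 4 of 9 libraries, which were the 3 of MS and MS + Blebb. replicate 2, the library of that group with the lowest Lrch4. Pearson's r between both names was -0.76 over the 9 libraries, rank 2 from the lowest among the 7003 genes averaging 5 FPKM or more that were compared with Lrch4. With quantile normalization r was -0.69 and the rank from the lowest was 26. Sap25, of whose transcript 99.7% lies in Gm20605-201, was listed at 0.137 FPKM at most.

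Summed over both names, the locus differed less between the groups. The sum of Lrch4 and Gm20605 was 37.9, 32.2 and 31.3 FPKM in CTL, 22.1, 24.9 and 29.3 FPKM in MS and 34.4, 35.9 and 26.5 FPKM in MS + Blebb. The MS libraries still lay below the CTL libraries, and the mean of CTL was 1.33 times that of MS, against 2.84 times for Lrch4 alone. A sum of FPKM follows the number of transcripts, while the reads behind an FPKM also scale with transcript length. A sum weighted by length follows the reads, here with the lengths of the GENCODE transcripts. The lengths used in the counting are not given in the sources used here. With Gm20605 weighted by the length ratio of 1.45, the sum was 42.8, 37.5 and 33.1 FPKM in CTL, 28.1, 32.5 and 38.1 FPKM in MS and 37.9, 46.9 and 30.9 FPKM in MS + Blebb. Then all 3 groups overlapped. The group means were 37.8 ± 4.85, 32.9 ± 5.04 and 38.6 ± 8.04 FPKM (SD, n = 3 each), and the mean of CTL was 1.15 times that of MS.

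On the log2(FPKM + 1) scale, the difference between MS and CTL was -1.40 for Lrch4, -0.40 for the sum and -0.20 for the length-weighted sum. That between MS + Blebb. and MS was 0.90, 0.33 and 0.21 in the same order, and that between MS + Blebb. and CTL was -0.50, -0.073 and 0.017. The division of the FPKM of the locus differed between MS and CTL without overlap, while MS + Blebb. overlapped both. Lrch4 took 71.6, 63.3 and 87.2% of the sum in CTL, 39.3, 32.2 and 33.0% in MS and 77.1, 31.8 and 63.0% in MS + Blebb. The part that the assignment of shared reads had in this was not tested.

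**Figure D3:**
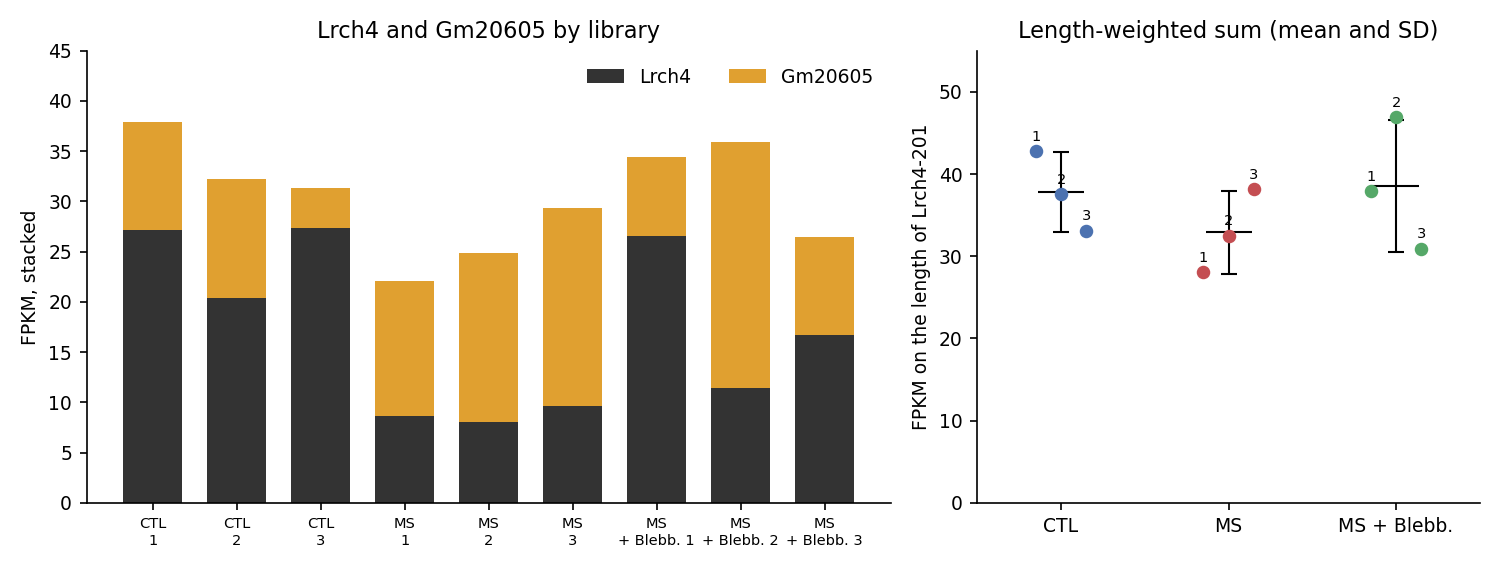
Left, FPKM of Lrch4 (dark) and Gm20605 (orange) stacked for each of the 9 libraries. Right, the sum with Gm20605 weighted by transcript length, by group, where points are libraries with their replicate number and bars are the mean and SD of 3 libraries. The dark part is short in the 3 MS bars (8.02 to 9.66 FPKM) while the length-weighted sums of MS (28.1 to 38.1 FPKM) overlap those of CTL (33.1 to 42.8 FPKM).

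The other genes beside the members were at different levels. Around Lrch4, Fbxo24, an F-box gene that starts 119 bases away on the minus strand, was listed at 0.0394 FPKM at most, and Irs3, an insulin receptor substrate gene within 5 kb, at 0.0982 FPKM at most. Lrch3 (chr16:32914100-33015647, plus strand) lies between Fyttd1, an mRNA export factor gene at 4.39 to 16.6 FPKM, and Rpl35a, a ribosomal protein gene at 565.8 to 850.9 FPKM. Lrch1 (chr14:74754675-74947876, minus strand) lies between Esd, the gene of an esterase, at 72.1 to 129.7 FPKM and Rubcnl at 0.0644 FPKM at most. Lrch2 (chrX:147470375-147554081, minus strand) lies between Vmn1r239-ps, listed at 0, and Gm15128 at 0.249 to 1.40 FPKM.

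The 5 genes whose levels were most like those of Lrch4 over the 9 libraries were Plcg2, Kat2a, Tmc8, Pabpc4 and Ttc7b, with Pearson's r of 0.86, 0.84, 0.81, 0.81 and 0.81 among 7003 genes. These genes were picked for the highest r out of 7003 over 9 libraries, so that r is a description and was not tested. Their differences were far smaller than that of Lrch4. Kat2a, a histone acetyltransferase gene, was at 63.0 to 66.6 FPKM in CTL, 54.95 to 59.5 in MS and 59.7 to 74.1 in MS + Blebb. Plcg2, a phospholipase C gene, was at 5.19 to 5.77, 4.60 to 5.16 and 4.91 to 5.76 FPKM. With quantile normalization 1 of the 5, Kat2a, was again among the first 5. Lrch3 held rank 3195 of 7003 with r = 0.07, and Lrch1 and Lrch2 were under the minimum of 5 FPKM for this ranking.

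Genes of LRCH partners, and of the wider families and pathways around them, were measured in 4 lists. These held 57 genes in all, of which 44 were tested. None of the 44 passed limma at an adjusted p of 0.05 in any comparison, against 0% of all genes. At an unadjusted p under 0.05 there were 0 of 44 between MS and CTL (0.158% of all genes), 1 of 44 between MS + Blebb. and MS (1.25% of all genes) and 0 of 44 between MS + Blebb. and CTL (0.089% of all genes). Such counts are near those of all genes. The 1 gene, named after its values were seen and only to account for the count, was Cdc42ep1, an effector of Cdc42 (32.5, 33.2 and 32.2 FPKM in CTL, 28.6, 33.2 and 25.3 FPKM in MS and 37.1, 38.9 and 32.8 FPKM in MS + Blebb.). Groups did not overlap for 1 of 44 genes, in MS against CTL, where 2.64% of all genes were lower in this way. The median log2 difference of the 44 was 0.034, -0.001 and -0.036 in the 3 comparisons, and that of all genes was -0.0018, -0.0059 and -0.013.

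Of 8 DOCK genes and complex partners 6 were tested. Dock6, whose protein binds LRCH proteins, was at 4.80 to 7.07 FPKM over the 9 libraries. Cdc42 was at 132.4 to 183.8 FPKM with a difference of 0.16 ± 0.14 in MS against CTL (adjusted p = 1 in limma). Dock8 was under the minimum, at 0.602 FPKM at most.

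Of 13 septin genes 9 were tested, and Septin9 was the highest at 195.9 to 261.7 FPKM. Its difference between MS and CTL was -0.03 ± 0.14. Septin8 followed at 41.4 to 64.4 FPKM and Septin11 at 13.5 to 26.1 FPKM, with differences of -0.15 ± 0.20 and 0.04 ± 0.25 (SE, adjusted p = 1 for all 3 in limma). In this comparison the list ran from Septin5 at -0.48 ± 0.34 to Septin7 at 0.71 ± 0.93 (SE). Septin7 was lowest in CTL replicate 1 and MS + Blebb. replicate 2, the libraries that stood apart, at 2.485 and 3.291 FPKM.

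Of 18 Cdc42 effectors and regulators 16 were tested. Arhgdia, which encodes a protein that holds small GTPases in the cytosol, was the gene without overlap. It was at 859.6, 864.6 and 872.9 FPKM in CTL, 799.2, 828.8 and 825.1 FPKM in MS and 979.2, 883.0 and 793.3 FPKM in MS + Blebb., and its difference between MS and CTL was -0.08 ± 0.12 (SE, adjusted p = 1 in limma). Cdc42bpb, a kinase gene, was at 45.8 to 63.4 FPKM and Cdc42se1, a small effector gene, at 33.2 to 48.9 FPKM.

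Of 18 genes for Toll-like receptors and the sensing of lipopolysaccharide 13 were tested. Hsp90b1, the chaperone of these receptors in the endoplasmic reticulum, was at 11.5, 74.0 and 96.5 FPKM in CTL, 129.8, 64.0 and 34.4 FPKM in MS and 37.1, 13.1 and 87.5 FPKM in MS + Blebb. It had the widest spread of the list and was lowest in CTL replicate 1 and MS + Blebb. replicate 2, the libraries that stood apart, with a difference of 0.57 ± 0.88 in MS against CTL (SE, adjusted p = 1 in limma). Cnpy3, a further chaperone gene of these receptors, was at 46.8 to 70.8 FPKM and Irak1, a kinase gene downstream of them, at 24.6 to 35.2 FPKM. Tlr4 itself was at 0.829 to 3.47 FPKM. Among its co-receptor genes, Ly96 was at 1.507 to 4.936 FPKM and Cd14 at 0.0668 FPKM at most.

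**Figure D4:**
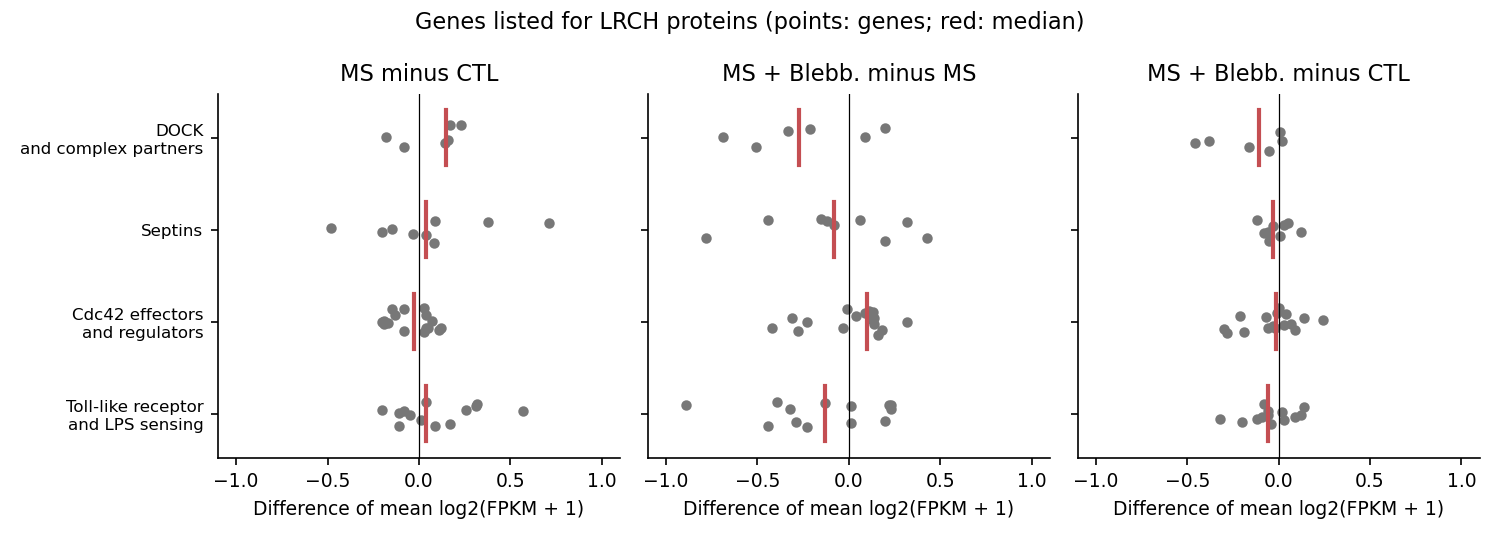
Difference of mean log2(FPKM + 1) (horizontal axis) in the 3 comparisons for the tested genes of 4 lists (rows), where points are genes and red lines are medians. The medians lie between -0.27 and 0.15, and no gene reaches the difference of -1.40 seen for Lrch4 in MS minus CTL.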

How the data were processed

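RNA had been extracted with TRIzol, prepared with the SMARTER mRNA-Seq kit and sequenced by the authors, who deposited 1 FPKM value per gene and library. The submitters' processing notes name GRCm38 and mm10, and the aligner, the counting and the annotation are not given in the sources used here. In CTL replicate 1 the column carries a sample name as its heading and was taken as FPKM. Ratios of low values between libraries showed no common step, with 1.69% at most in a bin of 0.02 log2 units, so that depth is unknown. Groups were taken from the labels. Values were compared as log2(FPKM + 1), which understates changes of low genes, in limma 3.58.1 (R 4.3.3), where lmFit was run on all 3 groups and eBayes with its trend option, two-sided, at a threshold of 0.05. The fit was run on simulated data with independent noise for each gene and library. In the real libraries many genes moved together, with 70.4% of the variance on the first principal component. The simulated run therefore cannot show how the fit behaves on them. A test of Lrch4 between MS + Blebb. and CTL had been planned and was left out, since its values in all groups were part of its choice. Exact permutation of 3 against 3 libraries cannot go below p = 0.1 and was not used. Gene models and transcript lengths were taken from GENCODE M21. The members and lists were chosen with earlier results of these data known. By rule, the text names the members, their neighbours and the 5 genes most like Lrch4. It also names the listed genes without overlap or among the highest 3 of a list. Cdc42ep1, Dock8, Tlr4, Ly96, Cd14, Septin5 and Septin7 were added after their values were seen. The alternatives were no minimum or one of 5 FPKM, a pseudocount of 0.1, median-of-ratios factors, quantile normalization, a replicate block, no trend, only the compared groups, each library left out, 3 libraries left out together (replicate 1 of CTL, 3 of MS and 2 of MS + Blebb.), and removal of the GC trend (loess span of 0.5). Both sums of Lrch4 with Gm20605 were added after the data had been seen. A gene of the first list is not reported here.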

Additional observations from a re-analysis of the deposited data

How the results depend on the processing

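Lrch4 stayed lower in MS than in CTL under every alternative (-1.53 to -1.29 on the log2 scale apart from the sums; -1.53 to -1.33 with single libraries left out) and below MS + Blebb. (0.60 to 1.24; 0.60 to 1.18 with single libraries left out). MS + Blebb. against CTL ranged from -0.80 to -0.22 with single libraries left out and was -0.16 in the 6 libraries. Summing Lrch4 with Gm20605 gave -0.40 for MS against CTL and 0.33 for MS + Blebb. against MS. The length-weighted sum gave -0.20 and 0.21 for these and a reversed 0.017 for MS + Blebb. against CTL. Both sums include the values of Gm20605, and the part of shared reads in the change was not tested. Signs of small differences turned for Lrch1 in MS + Blebb. against MS (0.089 with quantile normalization, 0.026 with the GC trend removed) and for Lrch3 there (0.0088 in the 6 libraries), and the cause was not tested. With single libraries left out, MS against CTL ran from -0.23 to 0.04 for Lrch1 and from -0.17 to 0.12 for Lrch3, and MS + Blebb. against MS from -0.15 to 0.051 for Lrch1. Genes with an adjusted p under 0.05 numbered 0 to 1 for both contrasts with MS, where leaving out MS replicate 2 gave Gm49527, and 0 in all others. Counts at an unadjusted p under 0.05 ran from 7 to 183 in MS against CTL (16 as reported), 34 to 935 in MS + Blebb. against MS (126) and 7 to 183 in MS + Blebb. against CTL (9). The count of 183 came in both cases with no minimum, and so over more genes. The 7 in MS + Blebb. against CTL came at a minimum of 5 FPKM, over fewer genes. The 935 came without MS + Blebb. replicate 3. Lrch1 has no value at a minimum mean of 5 FPKM, and Lrch2 none under any alternative.

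The replicate numbers gave no evidence of pairing. Deviations from the group means correlated at -0.79 to 0.83 in the 9 pairs of libraries with the same number, 2 of them above 0.1, and not every library correlated best with its own number. With a replicate block the differences of Lrch4 were -1.40, 0.90 and -0.50, those of Lrch1 -0.06, -0.057 and -0.12 and those of Lrch3 -0.022, -0.18 and -0.20, and 0 genes were called in any comparison. The depth is unknown, so that precision rests on 3 libraries in a group.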

Other observations

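Lrch4 and Gm20605 were 1 of 36 pairs of genes on the same strand that share at least 50% of the exonic bases of the smaller gene and reach a mean of 1 FPKM each. Pearson's r between the partners over the 9 libraries on the log2(FPKM + 1) scale ran from -0.88 to 0.92 with a median of 0.05 and was below 0 in 17 pairs. Lrch4 and Gm20605 share 77.2% over all their annotated transcripts, and 4 pairs had a lower r than their -0.76. The lowest was that of Gm49527 and Commd5 at -0.88. The pairs share the libraries, and r is given as a description.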
